A study of Mus musculus with 4 samples.

Results

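The imprinted genes of mouse chromosome 2 examined here were Gnas, its antisense partner Nespas, Nnat and Mcts2. They were followed as CpG methylation in 5 regions of that chromosome, 3 along the Gnas cluster (the Nesp promoter, the Nespas-Gnasxl differentially methylated region, and the exon 1A differentially methylated region) and 1 each at Nnat and Mcts2. The members are the cytosines inside these regions that were read at least 5 times in every library, a rule that used position and depth and no methylation value. It gave 565 cytosines, of 190147 such cytosines on chromosome 2 and 2468166 in the genome.

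The study used reduced representation bisulfite sequencing, in which genomic DNA is cut with MspI at CCGG, so that CpG-rich stretches are read, and bisulfite then separates methylated from unmethylated cytosines. There were 2 libraries of Naa10 knockout (KO) mouse embryonic stem (ES) cells and 2 of wild-type (WT) ES cells; Naa10, on the X chromosome, encodes the catalytic subunit of an enzyme that acetylates protein N-termini. All 4 cultures had been kept on irradiated mouse embryonic fibroblasts in N2B27 medium with LIF, a Mek inhibitor and a Gsk3 inhibitor, and were taken after 5 passages off the feeders, and the title of the series asks about DNA methylation and genomic imprinting. The labels give no strain, sex, clone or allele and do not say that the replicates were separate cultures or lines, so the p-values rest on a spread between libraries that may be only technical, and an effect of the genotype cannot be told apart from a difference between the lines. The ES cell identity and the Naa10 genotype could not be checked, since the files hold no expression and the Naa10 promoter could not be placed on them.

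Imprinted genes are expressed from one parental copy. The choice is held by CpG methylation that is laid down in one germline and kept through development, while the rest of the genome is reset, and KRAB zinc finger proteins such as ZFP57 guard it in the early embryo and in ES cells. At the Gnas cluster, the Nespas-Gnasxl and exon 1A regions are germline marks methylated on the maternal copy, and the Nesp promoter is a secondary mark of the paternal copy that is set later, after Nespas is transcribed across it. Nnat lies in an intron of Blcap and Mcts2 in an intron of H13, and both carry maternal germline methylation at their promoters. The deposited tables list calls per position and not reads, so the parental copies were not separated, and a mark on a single copy appears as an intermediate level. Even in WT, only 33 of the 565 cytosines reached a mean level of 40% or more. Whether the WT cells held complete marks was not tested.

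Of the promoters of these genes, those of Nnat, Mcts2 and 2 of the 4 Gnas starts could be placed on the authors' positions (mouse build mm9) by the spacing of their CpGs. They are shown because they place measured CpGs on the genes' own start sites; they carry only a small share of the 565 cytosines, and none of those of the Nespas-Gnasxl and exon 1A regions. The sequences are RefSeq's (GRCm38.p6), with 250 bases before and 50 after each start, on the plus strand. Capitals mark the CpGs read at least 5 times in every library.
Gnas, most upstream start (chr2:174109571-174109870, mm9, in the Nesp promoter region): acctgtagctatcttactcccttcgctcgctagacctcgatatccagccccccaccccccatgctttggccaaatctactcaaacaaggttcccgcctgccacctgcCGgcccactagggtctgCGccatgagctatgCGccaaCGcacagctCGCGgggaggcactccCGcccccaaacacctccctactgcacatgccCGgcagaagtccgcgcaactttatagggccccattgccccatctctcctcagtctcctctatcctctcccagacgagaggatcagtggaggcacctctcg
Gnas, most downstream start (chr2:174155257-174155556, mm9, just after the exon 1A region): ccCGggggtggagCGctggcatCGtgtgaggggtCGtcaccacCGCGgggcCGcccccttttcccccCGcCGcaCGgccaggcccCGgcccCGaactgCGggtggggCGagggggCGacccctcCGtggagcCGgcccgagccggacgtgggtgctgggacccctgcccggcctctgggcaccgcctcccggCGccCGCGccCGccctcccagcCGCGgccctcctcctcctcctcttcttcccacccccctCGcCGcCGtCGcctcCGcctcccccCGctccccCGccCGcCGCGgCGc
Nnat (chr2:157385564-157385863, mm9): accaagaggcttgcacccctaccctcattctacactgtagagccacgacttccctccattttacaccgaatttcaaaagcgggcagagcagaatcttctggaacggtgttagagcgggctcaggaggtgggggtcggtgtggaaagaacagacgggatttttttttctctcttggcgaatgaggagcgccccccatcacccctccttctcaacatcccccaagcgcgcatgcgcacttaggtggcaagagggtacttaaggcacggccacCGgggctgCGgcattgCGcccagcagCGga
Mcts2 (chr2:152512634-152512933, mm9): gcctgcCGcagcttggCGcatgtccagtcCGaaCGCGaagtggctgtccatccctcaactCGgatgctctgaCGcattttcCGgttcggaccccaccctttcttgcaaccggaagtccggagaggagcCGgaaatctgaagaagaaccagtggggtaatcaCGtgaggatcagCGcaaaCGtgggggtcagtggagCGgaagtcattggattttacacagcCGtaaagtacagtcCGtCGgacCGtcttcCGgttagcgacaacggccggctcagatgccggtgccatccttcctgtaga
The Mcts2 sequence holds 25 CpGs, of which 18 were measured, and the Nnat sequence holds 17, of which 4 were measured, all at or after its single CCGG at base 270. The upstream Gnas start had 8 of 16 CpGs measured and the downstream one 34 of 40. The other 2 Gnas starts could not be placed.

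In the 2 promoters that belong to maternally methylated regions the KO levels were below the WT levels. The Mcts2 promoter stood at 4.33% and 1.57% in the KO libraries (methylated calls as a share of all calls over 33 cytosines), against 17.2% and 12.6% in the WT libraries. The Nnat promoter stood at 2.17% and 5.77% in KO, against 26.3% and 35.5% in WT, over 4 cytosines. The groups did not overlap at either. Most measured sequence was lower in KO too, with 79.9% of 1 kb windows genome-wide called lower by the rule given below. The 2 Gnas promoters were low in every library. The upstream start, that of the Nesp transcript for the neuroendocrine protein NESP55, stood at 1.29% and 1.23% in KO, against 2.74% and 4.57% in WT. The downstream start, from which the G protein subunit Gsα is made, stood at 0.145% and 0.208% in KO, against 0.194% and 0% in WT, and its groups overlapped.

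The Nnat and Mcts2 promoters each hold 1 copy of TGCCGC, searched on both strands, the hexamer that ZFP57 is known to bind when its CpG is methylated. It starts at base 278 of the Nnat sequence and base 4 of the Mcts2 sequence, overlaps no CCGG, and is in 11.6% of the 32851 mouse promoters of the same length. The printed Gnas promoters do not hold it. The CpG inside the hexamer was measured at both genes. At Nnat (position 157385842) it was methylated in 0% and 7.69% of calls in KO (23 and 13 calls), against 26.3% and 36.8% in WT (19 calls in each). At Mcts2 (position 152512640) it was methylated in 7.5% and 0% of calls in KO (40 and 31 calls), against 29.6% and 13.2% in WT (27 and 38 calls). The cytosine of the same CpG on the other strand was methylated in 2.04% and 0% of calls in KO, against 17.5% and 9.76% in WT. Both hexamer CpGs were thus lower in each KO library than in either WT library, as were 44.6% of cytosines genome-wide. Their values were shared by neighbouring cytosines with matching call numbers. In WT replicate 1, all 13 such cytosines at Nnat had 26.3%, and 10 of 15 at Mcts2 had 29.6%. The levels are therefore not particular to the hexamer.

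Across the whole regions the same direction was found at all 5, and its size differed between them. Nespas-Gnasxl, exon 1A, Nnat and Mcts2 were left in KO with between 14.1% and 22.7% of their WT level, and the Nesp promoter with 63.3%. This stands in a genome in which most measured sequence was lower in KO: the mean level over all kept cytosines was 11.4% and 7.69% in the KO libraries, against 33.0% in each WT library, and 79.9% of all 155252 windows of 1 kb were called lower in KO, against 0.00386% called higher. A call means an adjusted p below 0.05 (edgeR, quasi-likelihood test of methylated against unmethylated calls, Benjamini-Hochberg over all windows and the 5 regions) and a difference of group means of at least 10 percentage points. Of the 5 regions, 3 were called lower, which is to be read against that share. Exon 1A and the Nesp promoter had mean WT levels below 10% and could not reach the difference that a call needs. Each library held between 68586396 and 79540412 calls, with a median of 21 to 25 calls per kept cytosine, and the mitochondrial CpGs, which are often taken to be unmethylated, read as methylated in 0.612% and 0.830% of calls in KO, against 2.04% and 1.38% in WT.

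**Figure D1:**
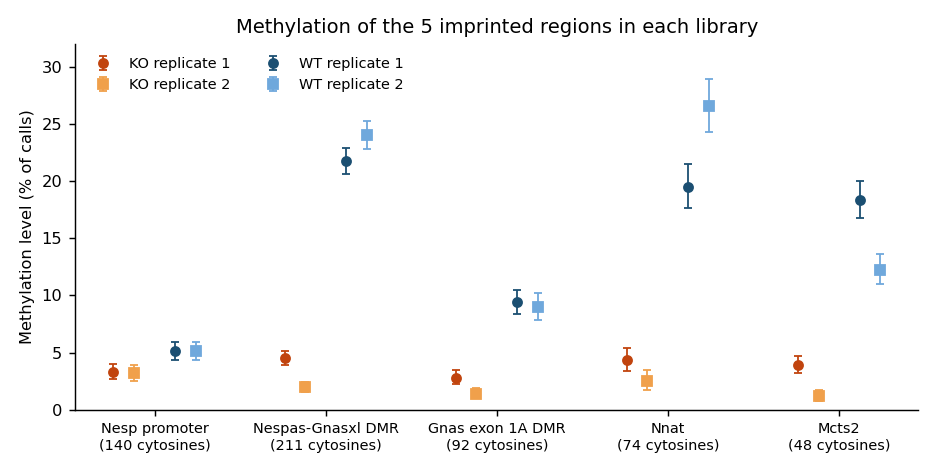
Methylation level (methylated calls as a percent of all calls, vertical axis) of the 5 regions, with each KO library left of the WT libraries; bars are exact 95% intervals of counting error. The KO libraries lie between 1.20% and 4.52% in every region, while the WT libraries lie between 5.11% at the Nesp promoter and 26.5% at Nnat.

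The Nespas-Gnasxl region (chr2:174118000-174126500) holds the start of Nespas, the antisense RNA that silences Nesp on the paternal copy, and that of Gnasxl, which encodes the large Gs variant XLαs. Over its 211 cytosines the level was 4.52% and 1.95% in the KO libraries, against 21.7% and 24.0% in the WT libraries. It averaged 3.23% ± 1.82 in KO and 22.9% ± 1.62 in WT (SD, n = 2 each), a difference of -19.65 points with a log2 odds ratio of -3.25 and an edgeR adjusted p of 1.848e-16. The fall was larger than the spread within either genotype. All 5 of its 1 kb windows were called lower, as were 79.9% genome-wide. The last of them held 3 cytosines and 97 calls over all libraries and passed narrowly (edgeR adjusted p of 0.04876). Of the 211 cytosines, 182 (86.3%) had both KO libraries below both WT libraries, against 44.6% of cytosines genome-wide. Wherever it is given, that share includes many cytosines with little methylation to lose. Windows of 1 kb with at least 20 cytosines had a median WT level of 0.908%. A region's higher share is thus no sign that it lost more than sequence of like WT level. None had both KO libraries above both WT libraries, which is the case for 0.442% genome-wide. A mean of 20% or more was reached by 2 cytosines in KO, against 79 in WT. No methylated call was seen in either KO library at 122 cytosines, against 12 cytosines with none in either WT library.

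The level ran unevenly along the region. Its most methylated window, 5 to 6 kb into the region, stood at 14.5% and 4.83% in KO, against 43.6% and 42.8% in WT. The next window stood at 1.08% and 0.924% in KO, against 19.9% and 19.6% in WT, and the one after it at 1.22% and 0.714% in KO, against 13.9% and 16.5% in WT. In these 2 windows the KO level was 5.08% and 6.38% of the WT level, a smaller share than the 14.1% over the region. The largest difference among cytosines of at least 20% in WT was at position 174124518, with 3.33% and 0% in KO (30 and 31 calls), against 50% and 56.2% in WT (34 and 32 calls). The highest KO level was at position 174123527, with 36.7% and 9.68% in KO (30 and 31 calls), against 57.6% and 76% in WT (33 and 25 calls). The KO replicates differed by more at this cytosine than over the region.

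**Figure D2:**
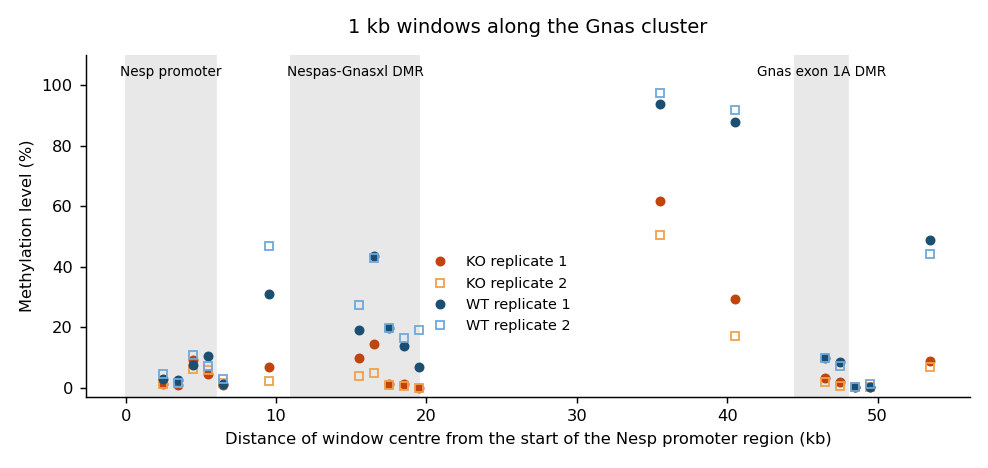
Methylation level (%) of 1 kb windows along the Gnas cluster, by distance of the window's centre from the start of the Nesp promoter region in kb; shaded bands are the 3 regions and each point is 1 library. The KO points lie under the WT points in the Nespas-Gnasxl and exon 1A bands, reach 61.8% and 50.6% in KO (against 93.7% and 97.4% in WT) between these bands, and lie under the WT points in 2 of the 4 windows of the Nesp band and mix with them in the other 2.

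The exon 1A region (chr2:174151500-174155000) is the mark whose methylation on the maternal copy is linked to tissue-specific silencing of Gsα from the paternal copy. Its 92 cytosines were methylated at 2.80% and 1.38% in KO, against 9.39% and 9.01% in WT. The means were 2.09% ± 1.00 in KO and 9.20% ± 0.269 in WT (SD, n = 2 each), a difference of -7.12 points with a log2 odds ratio of -2.31 and an edgeR adjusted p of 7.193e-08. The difference was larger than the spread between replicates and passed the p threshold, but it was under the 10 points that a call needs, since WT itself was below 10%. Its 2 windows differed by less than 10 points too, with edgeR adjusted p of 3.613e-06 and 1.5e-07. The KO libraries lay under both WT libraries at 48 of 92 cytosines (52.2%), close to the genome-wide 44.6%. The largest difference among cytosines of at least 20% in WT was at position 174153935, with 17.6% and 6.06% in KO (34 and 33 calls), against 41.9% and 48.6% in WT (31 and 35 calls). Only 6 of the 92 cytosines had a mean of 20% or more in WT, and none had one in KO.

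The Nesp promoter region (chr2:174107000-174113000) was the exception in size. Its 140 cytosines were methylated at 3.30% and 3.17% in KO, against 5.12% and 5.11% in WT. The means were 3.23% ± 0.0906 in KO and 5.11% ± 0.00730 in WT (SD, n = 2 each), which is a difference of -1.88 points with an edgeR adjusted p of 0.1061, so no change was called. None of its 4 windows was called. The window with the most methylation stood at 9.19% and 6.14% in KO, against 7.66% and 10.8% in WT, so the groups overlapped, and the edgeR adjusted p was 0.603. The first window, with the upstream Gnas start, had an edgeR adjusted p of 0.02442 and a difference of -2.40 points, again under the minimum.

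Single cytosines of the Nesp promoter went both ways. The KO libraries lay under both WT libraries at 25 cytosines (17.9%, against 44.6% genome-wide), and both were above at 2. Of the 8 cytosines in all 5 regions with a mean KO level of at least 20%, 6 were in the Nesp region and 2 in the Nespas-Gnasxl region. The highest was at position 174111229, with 50% and 66.7% in KO (6 calls in each), against 37.5% and 44.4% in WT (8 and 9 calls). So few calls leave each of these values wide margins. The largest decrease among Nesp cytosines of at least 20% in WT was at position 174112475, with 15.4% and 25% in KO (13 and 16 calls), against 26.3% and 29.2% in WT (19 and 24 calls).

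**Figure D3:**
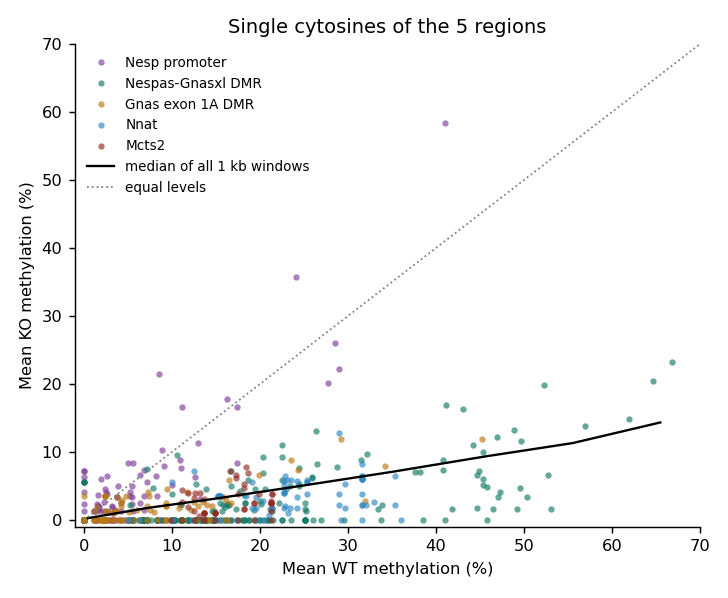
Mean KO level (vertical axis, %) against mean WT level (horizontal axis, %) of each of the 565 cytosines, coloured by region; the solid line joins the medians of all 1 kb windows by WT level and the dotted line marks equal levels. The solid line stays at or below 14.3% in KO, so any cytosine picked for a mean KO level of 20% or more lies above it. Of the 6 such Nesp promoter cytosines some lie past the dotted line, and a few low cytosines of other regions also pass the dotted line.

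Outside the 3 Gnas regions the cluster had levels of several kinds. The stretch of 4999 bp between the Nesp and Nespas-Gnasxl regions (18 cytosines) stood at 1.90% and 1.61% in KO, against 7.26% and 11.4% in WT. The 24999 bp between the Nespas-Gnasxl and exon 1A regions (17 cytosines) stood at 49.8% and 36.4% in KO, against 91.1% and 95.4% in WT, the highest KO levels of the cluster. The 5 kb after exon 1A, which hold the Gsα promoter (225 cytosines), stood at 0.194% and 0.189% in KO, against 0.219% and 0.526% in WT. The KO libraries thus had their highest levels between the marks, where WT was nearly fully methylated.

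Nnat encodes neuronatin, a small membrane proteolipid of the developing brain. Its region (chr2:157384500-157388500) was methylated at 4.35% and 2.49% in KO over 74 cytosines, against 19.5% and 26.5% in WT. The means were 3.42% ± 1.31 in KO and 23.0% ± 4.97 in WT (SD, n = 2 each), with a difference of -19.62 points, a log2 odds ratio of -3.09 and an edgeR adjusted p of 4.681e-11. The region was called lower, and at 59 cytosines (79.7%, against 44.6% genome-wide) neither KO library reached either WT library. Its 3 windows with measured cytosines stood at 4.93% and 4.20%, 4.87% and 1.51%, and 2.94% and 1.98% in KO, against 24.2% and 30.6%, 17.2% and 22.2%, and 18.4% and 26.6% in WT. All 3 were called lower, against 79.9% of windows genome-wide. A cytosine mean of 20% or more was reached by none of the 74 in KO, against 46 in WT. Another window overlaps the region's edge, but its 3 measured cytosines lie just before it, and these stood at 19.1% and 10.1% in KO, against 85.8% and 80.8% in WT. The largest difference was at position 157387274, with 0% in both KO libraries (23 and 14 calls), against 32% and 40% in WT (25 and 15 calls).

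Mcts2 is a retrogene copy of Mcts1, which encodes a factor of translation reinitiation. Its region (chr2:152511500-152514000) was methylated at 3.91% and 1.20% in KO over 48 cytosines, against 18.4% and 12.2% in WT. The means were 2.56% ± 1.92 in KO and 15.3% ± 4.33 in WT (SD, n = 2 each), with a difference of -12.75 points, a log2 odds ratio of -2.91 and an edgeR adjusted p of 7.839e-11. The region and its single window, which holds the same 48 cytosines, were called lower. Without WT replicate 1 the difference was -9.69 points and the call was lost to the 10 point minimum (edgeR adjusted p of 0.0003225, with the spread taken from the KO pair and the other windows). At all 48 cytosines (against 44.6% genome-wide) neither KO library reached either WT library, and no cytosine exceeded a mean of 7.78% in KO, against 21.4% in WT. The largest difference was at position 152512620, with 0% in both KO libraries (40 and 31 calls), against 29.6% and 12.8% in WT (27 and 39 calls).

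**Figure D4:**
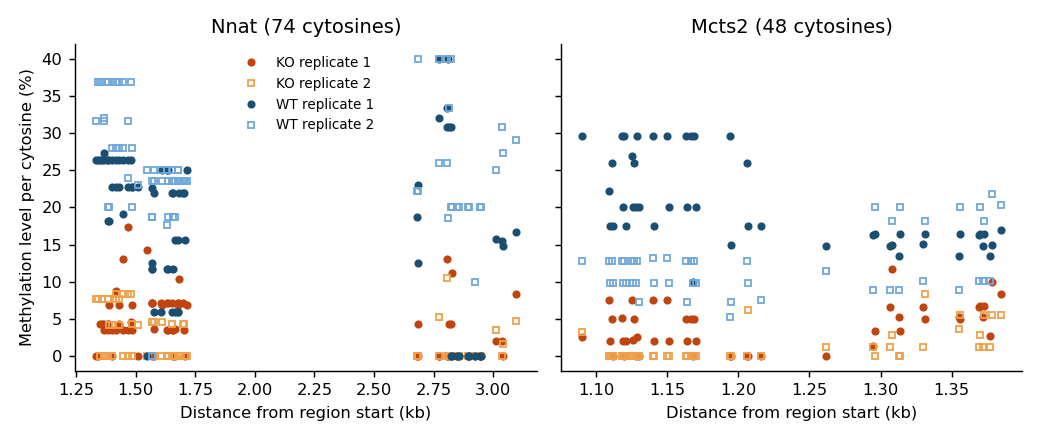
Methylation level (%) of each measured cytosine of the Nnat and Mcts2 regions by distance from the region's start in kb, 1 point per library. KO points lie mostly under 10% and WT points mostly above, and runs of points at one height are neighbouring cytosines with the same counts.

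Many neighbouring cytosines had the same counts, as happens when the same reads cover them. When cytosines within 300 bp whose call numbers matched to within 1 in all 4 libraries were grouped, 47 of the 48 Mcts2 cytosines fell into 4 groups and 69 of the 74 Nnat cytosines into 7. In the first Mcts2 group, of 15 cytosines, WT replicate 1 had exactly 29.6% (27 calls per cytosine) at 10 of them. The exact 95% intervals, which count each call as independent, are therefore too narrow, and reads were not counted by molecule. Counts of cytosines with KO under WT are likewise not counts of independent observations. By group, both KO libraries lay under both WT libraries in 26 of 27 at Nespas-Gnasxl, 6 of 7 at Nnat and 4 of 4 at Mcts2. At exon 1A it was 9 of 10 and at the Nesp promoter 8 of 18. Groups were not formed genome-wide.

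The 2 WT libraries differed from each other by more than their counting intervals at Nnat and Mcts2, and in opposite directions. At Nnat the exact 95% interval was 17.7% to 21.5% in WT replicate 1 and 24.3% to 28.9% in WT replicate 2. At Mcts2 it was 16.8% to 20.0% in WT replicate 1 and 11.0% to 13.6% in WT replicate 2. The Mcts2 groups were not alike in this. KO had 4.34% and 0.215% in the first group and 6.46% and 3.82% in the last. Of the same groups, the first had 28.2% in WT replicate 1 and 12.4% in WT replicate 2, and the last had 16.0% and 19.6%. KO replicate 2 was below KO replicate 1 in all 5 regions, as it was over all kept cytosines.

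In order of WT level the regions ran from Nnat and Nespas-Gnasxl, which did not differ beyond their spread, through Mcts2 and exon 1A to the Nesp promoter. In KO no such order could be read, since the 5 means lay between 2.09% and 3.42% with SDs of up to 1.92 points. Permuting the 4 library levels of each region (exact permutation test, two-sided) gave p = 0.333 each time, the smallest that 2 against 2 libraries allow.

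Set beside windows of like WT level, 4 of the 5 regions kept a share of their WT methylation near the middle of the genome's range. KO had 14.1% of the WT level at Nespas-Gnasxl and 14.8% at Nnat, while windows of 20 to 30% in WT had a median of 20.4% and a 10th to 90th percentile range of 5.98% to 43.3%. It had 16.7% at Mcts2, and windows of 10 to 20% in WT had a median of 21.5% (5.32% to 50.3%). It had 22.7% at exon 1A, and windows of 5 to 10% in WT had a median of 24.9% (5.24% to 61.9%). The Nesp promoter kept 63.3%, just above the 90th percentile of that same band, but its WT level lies at the band's lower edge, and windows of 0 to 5% in WT had a median of 55.6% (12.7% to 143.2%).

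The regions were also tested against the shift of the whole library, with limma on the logit of the methylation level. Each library was first centred on its median over the same windows, those with a mean level of 10 to 90% over all libraries. The Nesp promoter lay above this shift, by 2.62 on the natural logit scale (limma adjusted p of 0.00587), and so did exon 1A by 1.49 (limma adjusted p of 0.0106) and Nnat by 0.946 (limma adjusted p of 0.0465). Nespas-Gnasxl at 0.834 and Mcts2 at 1.03 did not pass (limma adjusted p of 0.05795 and 0.07331). Of all windows, 27.8% passed in this direction. Nnat no longer passed with any single library left out (0.745 to 1.15), nor did exon 1A without WT replicate 1 (1.51) or WT replicate 2 (1.47). Exon 1A and Nnat passed or not by the centring used, while Nespas-Gnasxl and Mcts2 passed under none at the minimum of 5 calls. A further centring, on windows of 10 to 30% in WT replicate 1, was chosen after seeing the data. There Nespas-Gnasxl, Nnat and Mcts2 stood at -0.535, -0.422 and -0.334, and none of them nor exon 1A passed. The Nesp promoter kept 1.26 (limma adjusted p of 0.01144) and passed under each centring. Every centring used windows at levels of 10% or more, above the Nesp WT levels. None could thus show whether the Nesp promoter is unusual for its own level. The Nesp levels, of 3.30% and 3.17% in KO against 5.12% and 5.11% in WT, lie above the mitochondrial ones, and the part of incomplete conversion in this result was not tested.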

How the data were processed

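Genomic DNA of 2 Naa10 KO and 2 WT mouse ES cell libraries was measured by RRBS. DNA (50 ng) was cut with MspI, end-filled, ligated to methylated adaptors, bisulfite converted, amplified and size selected, per the labels' protocols. The authors deposited, per library, each CpG cytosine's position, its methylation as a percent and its counts of methylated and unmethylated calls. The deposited percent equals the share given by the deposited counts, which were used for every value. The submitters' processing notes name Trim Galore, Bismark 0.10.1 and mm9, with no role or order; the settings of trimming, filtering and duplicate removal were not given in the sources used here. Bases filled in at MspI ends can read as unmethylated unless trimmed.

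Cytosines with at least 5 calls in every library were kept, strands apart. Region and 1 kb window levels (at least 3 cytosines) are summed methylated calls over all calls. Both were fitted together with edgeR 4.0.16 (R 4.3.3) with terms for each library, for methylated state and for its interaction with genotype, on all 4 libraries, and adjusted by Benjamini-Hochberg; limma 3.58.1 was used on logits with 0.5 added to each count. The code was checked on simulated data. Exact permutation tests and Clopper-Pearson intervals used scipy 1.17.1.

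RefSeq promoters were placed where their CpG spacing matched all listed cytosines, with at least 10 of these required; no mm9 annotation was used, and region names are those of the rule. Inside each region the named windows have the most calls or the highest or lowest KO level, and named cytosines have the largest or smallest fall among those of at least 20% in WT, or the highest KO level. Other windows, stretches and groups of cytosines were named after their values were seen. The members and lists were chosen with earlier results of these data known. Alternatives were other depth minimums, tests, windows, weights and centrings, each library left out, and a replicate block; 1 centring and the grouping of cytosines with matching counts were added after seeing the data. A cause of the library-wide difference was not tested.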

Additional observations from a re-analysis of the deposited data

How the results depend on the processing

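The direction of KO minus WT at the 5 regions was the same at minimums of 10 and 20 calls, with equal weight per cytosine and with each library left out. Limma, Fisher's exact test and the replicate block use the same levels and change only the p-value. Leaving out the deepest positions removed none of the 565 cytosines. These alternatives could therefore not have changed the direction. With each cytosine weighing the same, the Nesp promoter differed by -1.34 points and Nespas-Gnasxl by -17.4. Exon 1A, at -7.12 points, is called only with no minimum difference. Leaving out 1 library at a time gave -9.69 (without WT replicate 1, not called) to -15.8 points at Mcts2. With a library left out, its genotype has 1 sample, which is assumed to vary like the other genotype's pair and the other windows. Windows called lower numbered 10 of 16, against 79.9% genome-wide, and 2 with a minimum of 25 points. Those not called at 10 points lie in the Nesp promoter and exon 1A. Their mean WT levels were below 10%, so a fall of 10 points was not possible. The genome-wide share also includes windows of that kind. Of the 15 windows that held a measured cytosine of a region, 9 were called lower. Cytosines at which the KO libraries lay under both WT libraries numbered 206 of 260 (79.2%, against 42.5% genome-wide) at a minimum of 20 calls, and 362 of 565 (64.1%, against 44.6% genome-wide) at the minimum of 5.

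The position relative to the library-wide shift was the least stable measure. Nespas-Gnasxl passed with 0.836 and 0.853 at minimums of 10 and 20 calls and stood at -0.535 when centred on windows of 10 to 30%. Exon 1A did not pass at 0.764 (centred on 25 to 75%), 0.118 (10 to 30%) or without either WT library, in a range over left-out libraries of 1.41 to 1.56. Nnat did not pass at 0.224 (25 to 75%), 0.363 (windows of at least 20 cytosines), -0.422 (10 to 30%) or without any 1 library (0.745 to 1.15), and Mcts2 stood at -0.334 (10 to 30%). The cause was not tested.

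No pairing by replicate number was seen: deviations of same-numbered libraries from their group means had r = -0.0046 over 123506 windows. With 2 libraries per group this cannot show that same-numbered libraries shared no batch or culture, and the labels do not say what a number shares. With the replicate block Nnat did not pass against the library-wide shift (0.946, limma adjusted p of 0.0745), and 9 windows were called lower. No other region result, in level or against the library-wide shift, changed its call under the block. Depth limits single cytosines, whose median depth ran from 13 to 49 calls by region and library.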

Other observations

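The promoter of Blcap, the host gene of Nnat, was placed by the same method (chr2:157392048-157392347, mm9, 22 cytosines) and had no methylated call in either KO library (208 and 216 calls), against 1.39% and 1.11% in the WT libraries (288 and 270 calls). These WT levels lie below the mitochondrial ones, of 2.04% and 1.38% in WT against 0.612% and 0.830% in KO. The part of incomplete conversion in the Blcap difference was not tested. The promoter of H13, the host gene of Mcts2, was placed too but had no cytosine with 5 calls in every library.

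Cytosines of the regions that missed the depth minimum were read too thinly for more than their summed levels. At Nespas-Gnasxl these 166 cytosines stood at 5.76% and 3.82% in KO, against 33.5% and 22.4% in WT, and at Nnat 36 stood at 10.6% and 7.89% in KO, against 19.5% and 40.5% in WT. At exon 1A 68 stood at 0% and 1.53% in KO, against 9.63% and 2.67% in WT. At Mcts2 the 22 left out had no methylated call in any library, on 6 and 16 calls in KO and 1 and 17 calls in WT.

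The Nespas-Gnasxl region held 1 group of cytosines without a methylated call in WT, picked out after its values were seen. Its 12 cytosines with matching counts (174125190 to 174125319) had 2.78% and 0% in KO, against 0% in both WT libraries, on 9, 12, 5 and 8 calls per cytosine in KO replicate 1, KO replicate 2, WT replicate 1 and WT replicate 2.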
